A study of Homo sapiens with 14 samples.

Results

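The miRNAs described here are both arms of 3 hairpins that lie inside broadly expressed protein-coding genes: miR-423-5p and miR-423-3p, miR-744-5p and miR-744-3p, and miR-1307-5p and miR-1307-3p. They were chosen by name from the raw table of 2632 miRNAs, with their counts already in view, so their levels are given as a description. Of the 6 miRNAs, 5 had at least 1 count and 4 (miR-423-5p, miR-423-3p, miR-744-5p and miR-1307-3p) had enough counts to be tested between conditions, among 47 miRNAs tested in all.

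The RNA came from extracellular vesicles (EVs), membrane particles shed by cells, in medium conditioned by epicardial cells, the cells that cover the heart. All cultures started from pro-epicardial cells made from the human embryonic stem cell line hES-2, which is an established line. The NT group (3 libraries, replicates 1, 3 and 4) is labelled unstimulated pro-epicardial and had no additive. The SB group (4 libraries) is labelled mature epicardial and was held in 6 µM SB-431542, which blocks TGF-β type I receptors, for 8 days. The TGFb group (4 libraries) was given 5 ng/ml TGF-β1 for 4 days, and the FGF group (3 libraries, replicates 2, 3 and 4) 10 ng/ml basic FGF for 8 days. In every group the medium used from day 4 had been ultrafiltered at 100 kDa, and it was collected on days 6 and 8. A single stem cell line underlies every library, and the labels do not say whether replicates came from separate differentiations, so p-values measure only the spread between these libraries.

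A miRNA is cut from a hairpin in a longer transcript. The nuclease Drosha frees the hairpin, Dicer removes its loop, and usually one arm of the remaining duplex is loaded into an Argonaute protein while the other is degraded. The loaded arm finds target mRNAs mainly through its seed, bases 2 to 8. miRNAs that lie within a gene on the same strand can be made from that gene's transcript, and those in genes used by most cells are found in most tissues. miR-423-5p is also known from blood, where it has been studied as a circulating marker in heart failure, and miR-423 has been used as a reference miRNA in serum assays.

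The mature sequences are shown because the arm of each hairpin that was counted, and the identity of its seed, are what the values below describe. They are from RefSeq (GRCh38.p14), written 5′ to 3′ with the seed in capitals. All 6 names were found there, as were 2349 of the 2632 names in the table. The last 2 sequences belong to MIR3184, a hairpin on the opposite strand of MIR423.
miR-423-5p: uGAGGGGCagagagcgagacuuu
miR-423-3p: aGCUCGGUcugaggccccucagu
miR-744-5p: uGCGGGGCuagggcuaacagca
miR-744-3p: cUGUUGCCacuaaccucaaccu
miR-1307-5p: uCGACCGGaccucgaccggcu
miR-1307-3p: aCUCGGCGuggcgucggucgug
miR-3184-5p: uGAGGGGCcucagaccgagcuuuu
miR-3184-3p: aAAGUCUCgcucucugccccuca

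The 6 members have 6 different seeds, so they form no seed family. They were 21 to 23 bases long. Their G+C content was 56.5% for miR-423-5p, 65.2% for miR-423-3p, 63.6% for miR-744-5p, 50.0% for miR-744-3p, 71.4% for miR-1307-5p and 72.7% for miR-1307-3p, against a median of 52.2% over 2370 mature miRNAs in the reference table. All but miR-744-3p were therefore above that median. miR-3184-5p has the seed of miR-423-5p and shares its first 8 bases, and miR-3184-3p is the exact reverse complement of miR-423-5p. Both arms of miR-3184 were at 0 in all 14 libraries. miR-10396a-5p has the seed of miR-744-5p and was also at 0 throughout. No other member shared its seed with another miRNA of the reference table.

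MIR423 lies on chromosome 17 from 30117079 to 30117172 (plus strand, GRCh38), within NSRP1, which encodes a splicing regulator of nuclear speckles. In GENCODE 29 it overlapped an exon of 3 of the 14 NSRP1 transcripts, a UTR exon in 2 of them, and was intronic or outside the rest. miR-423-5p spans 30117095 to 30117117 and miR-423-3p 30117131 to 30117153. MIR744 lies on the same chromosome from 12081899 to 12081996 (plus strand), within MAP2K4, which encodes a kinase that activates JNK. It overlapped no exon of any of the 12 MAP2K4 transcripts. MIR1307 lies on chromosome 10 from 103394253 to 103394401 (minus strand), within ATP5MD (ATP5MK in RefSeq), which encodes a small membrane subunit of ATP synthase. It overlapped a UTR exon in 2 of the 5 transcripts of that gene.

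The intronic MIR744 hairpin is printed in full, with both mature arms in capitals, because only its first arm was found.
MIR744: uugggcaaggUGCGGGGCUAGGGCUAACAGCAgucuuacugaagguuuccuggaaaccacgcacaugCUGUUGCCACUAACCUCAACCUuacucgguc

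The libraries were shallow and uneven, with totals of 115 to 14862 counts and 47091 counts in all. NT totals ran from 1010 to 14862, SB totals from 179 to 3826, TGFb totals from 231 to 7478 and FGF totals from 115 to 3241. A single count thus weighed 0.870% in the shallowest library, against 0.00673% in the deepest one. Values below are shares of all miRNA counts in a library unless another scale is named, with 95% Wilson intervals that cover counting error only. A share falls when other miRNAs rise, and in these vesicle preparations fewer vesicles of a kind and fewer copies per vesicle cannot be told apart. Of 6 cardiac muscle miRNAs 2 were detected (34 counts), and of 8 pluripotency miRNAs 2 were detected (5 counts). Of 7 serum and red-cell miRNAs 3 were detected (43 counts), while miR-451a, miR-144-3p, miR-144-5p and miR-150-5p were at 0. Their summed share was 0 to 0.396% in NT, 0 to 3.91% in SB, 0 to 0.144% in TGFb and 0.123% to 1.74% in FGF, and its part in the members' values was not tested.

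Together the members made up 1936 counts, or 4.11% of all counts (3.94% to 4.29%). Their summed share ran from 2.33% in TGFb 1 to 6.45% in SB 4. NT averaged 4.94% ± 0.827 (SD, n = 3), SB 4.24% ± 1.56 (n = 4), FGF 3.44% ± 1.12 (n = 3) and TGFb 2.92% ± 0.653 (n = 4). By mean share over the 14 libraries, miR-423-5p was 10th of the 447 miRNAs detected, miR-1307-3p 24th, miR-423-3p 36th, miR-744-5p 43rd and miR-1307-5p 206th. The mean share of the 4 tested members ran from 1.94% ± 0.759 (SD, n = 14) for miR-423-5p through 0.869% ± 0.416 for miR-1307-3p and 0.559% ± 0.342 for miR-423-3p to 0.462% ± 0.392 for miR-744-5p. Below miR-423-5p, neighbours in this order differed by less than 1 SD.

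miR-423-5p was the most abundant member and had a count in all 14 libraries, 910 in total. In NT its share was 1.66%, 2.38% and 1.98% in replicates 1, 3 and 4. In SB it was 1.74%, 1.12%, 2.17% and 3.42% in replicates 1 to 4, the SB 4 value being the highest of any library. TGFb libraries had 0.705%, 1.30%, 1.40% and 1.59%, and FGF libraries 2.61%, 3.15% and 1.96% in replicates 2, 3 and 4. All 4 TGFb libraries were below every NT and every FGF library, while SB overlapped all other groups. The gap to NT was narrow: TGFb 4 (44 counts, 1.19% to 2.13%) and NT 1 (246 counts, 1.46% to 1.87%) had overlapping intervals. The group means were, in order, 2.57% ± 0.595 for FGF (SD, n = 3), 2.11% ± 0.974 for SB (n = 4), 2.00% ± 0.362 for NT (n = 3) and 1.25% ± 0.382 for TGFb (n = 4). Among the first 3 of these, neighbours differed by less than 1 SD.

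The separation of TGFb from NT and FGF held on 2 of the 4 scales examined. Both arms of miR-483, the most abundant hairpin, take a large part of the counts. With them left out of the total, the highest TGFb library reached 2.70% against a lowest NT library of 2.53% and a lowest FGF library of 2.26%, so the groups overlapped. They also overlapped in TMM CPM (counts brought to equal library totals, then scaled by the bulk of the miRNAs), where the highest TGFb value was 23056 and the lowest NT value 21596. In the authors' adjusted table the groups did not overlap, with a highest TGFb share of 1.59%, a lowest NT share of 1.84% and a lowest FGF share of 1.65%.

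miR-423-3p, the other arm of the same hairpin, had 289 counts in 12 libraries. NT libraries had 0.552%, 0.740% and 0.792%, and SB libraries 1.16%, 0.559%, 0.653% and 1.01%. TGFb libraries had 0.423%, 0, 0.548% and 0.686%, and FGF libraries 0, 0.586% and 0.115%. Values of all 4 groups overlapped. The count of 0 in TGFb 2 allows a share of up to 1.30% and that in FGF 2 up to 2.61%, so neither was distinguishable from the other libraries at this depth. In FGF 4, 1 count of 868 gave an interval of 0.0203% to 0.650%. Group means were 0.695% ± 0.126 in NT, 0.846% ± 0.286 in SB, 0.414% ± 0.296 in TGFb and 0.234% ± 0.311 in FGF.

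miR-1307-3p had 506 counts in 13 libraries and was highest in NT. The NT libraries had 1.49%, 1.18% and 1.68% (222, 112 and 17 counts). SB libraries had 0.580%, 1.12%, 0.523% and 0.933% (2, 2, 20 and 12 counts), and TGFb libraries 0.705%, 0.866%, 0.709% and 0.794% (10, 2, 53 and 22 counts). FGF libraries had 0, 0.771% and 0.806% (0, 25 and 7 counts). Each of the 3 NT libraries was above each of the other 11 libraries. Of the 47 tested miRNAs, this was the only one whose NT libraries were all above the rest (2.13% of those tested). The margin was small where counts were few: SB 2 had 2 counts and an interval of 0.307% to 3.98%, which covers every NT value. The intervals of SB 1 (0.159% to 2.09%) and TGFb 2 (0.238% to 3.10%) cover every NT value too. The 0 of 115 counts in FGF 2 allows up to 2.61%. Intervals of SB 4 (up to 1.62%) and FGF 4 (up to 1.66%) reached some of the NT values. Those of TGFb 1 (up to 1.29%) and TGFb 4 (up to 1.20%) reached the lowest of them, the 1.18% of NT 3. Among the deeper libraries, the interval of NT 3 (0.985% to 1.42%) lay above those of SB 3 (0.339% to 0.806%) and TGFb 3 (0.542% to 0.926%) and overlapped that of FGF 3 (0.523% to 1.14%).

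miR-1307-3p averaged 1.45% ± 0.252 in NT (SD, n = 3). The other means were 0.788% ± 0.285 for SB (n = 4), 0.768% ± 0.0768 for TGFb (n = 4) and 0.526% ± 0.456 for FGF (n = 3), which differed among themselves by less than the SD of FGF. NT also stood above the other 11 libraries without miR-483 in the total (at least 2.05% against at most 1.41%) and in TMM CPM (at least 16291 against at most 11708). In the authors' adjusted table it did not: there an SB library reached 1.85% against a lowest NT value of 1.498%, while TGFb and FGF libraries stayed below NT, at up to 1.20% and 0.901%.

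miR-744-5p had 227 counts in 11 libraries. NT libraries had 0.390%, 0.676% and 1.29% (58, 64 and 13 counts), and SB libraries 0.290%, 0, 0.575% and 1.09% (1, 0, 22 and 14 counts). TGFb libraries had 0.494%, 0.433%, 0.254% and 0.758% (7, 1, 19 and 21 counts). In FGF the only counts were 7 in replicate 3, a share of 0.216%, with 0 in replicates 2 and 4. The FGF libraries were thus below every NT and every TGFb library, and within the range of SB. The 0 of 868 counts in FGF 4 allows up to 0.346% when the limit is 3 counts over the total. That limit is below all 3 NT values but above the lowest TGFb value. The Wilson limit of FGF 4 is 0.441%, above the NT 1 share of 0.390%, so FGF 4 was not set apart from NT 1. The 0 of 115 in FGF 2 allows up to 2.61%. The interval of FGF 3 (0.105% to 0.445%) overlapped that of NT 1 (0.302% to 0.504%) and of TGFb 3 (0.163% to 0.397%). Group means were 0.785% ± 0.458 in NT, 0.488% ± 0.464 in SB, 0.485% ± 0.209 in TGFb and 0.0720% ± 0.125 in FGF. The FGF position was the same without miR-483 in the total, in TMM CPM and in the authors' adjusted table.

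The remaining arms were barely seen. miR-744-3p was at 0 in all 14 libraries, and 0 of 47091 counts allows a share of up to 0.00637%. miR-1307-5p had 4 counts in total, 1 each in NT 3, SB 3, TGFb 3 and FGF 4, of which FGF 4 gave the highest share at 0.115% (0.0203% to 0.650%).

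**Figure D1:**
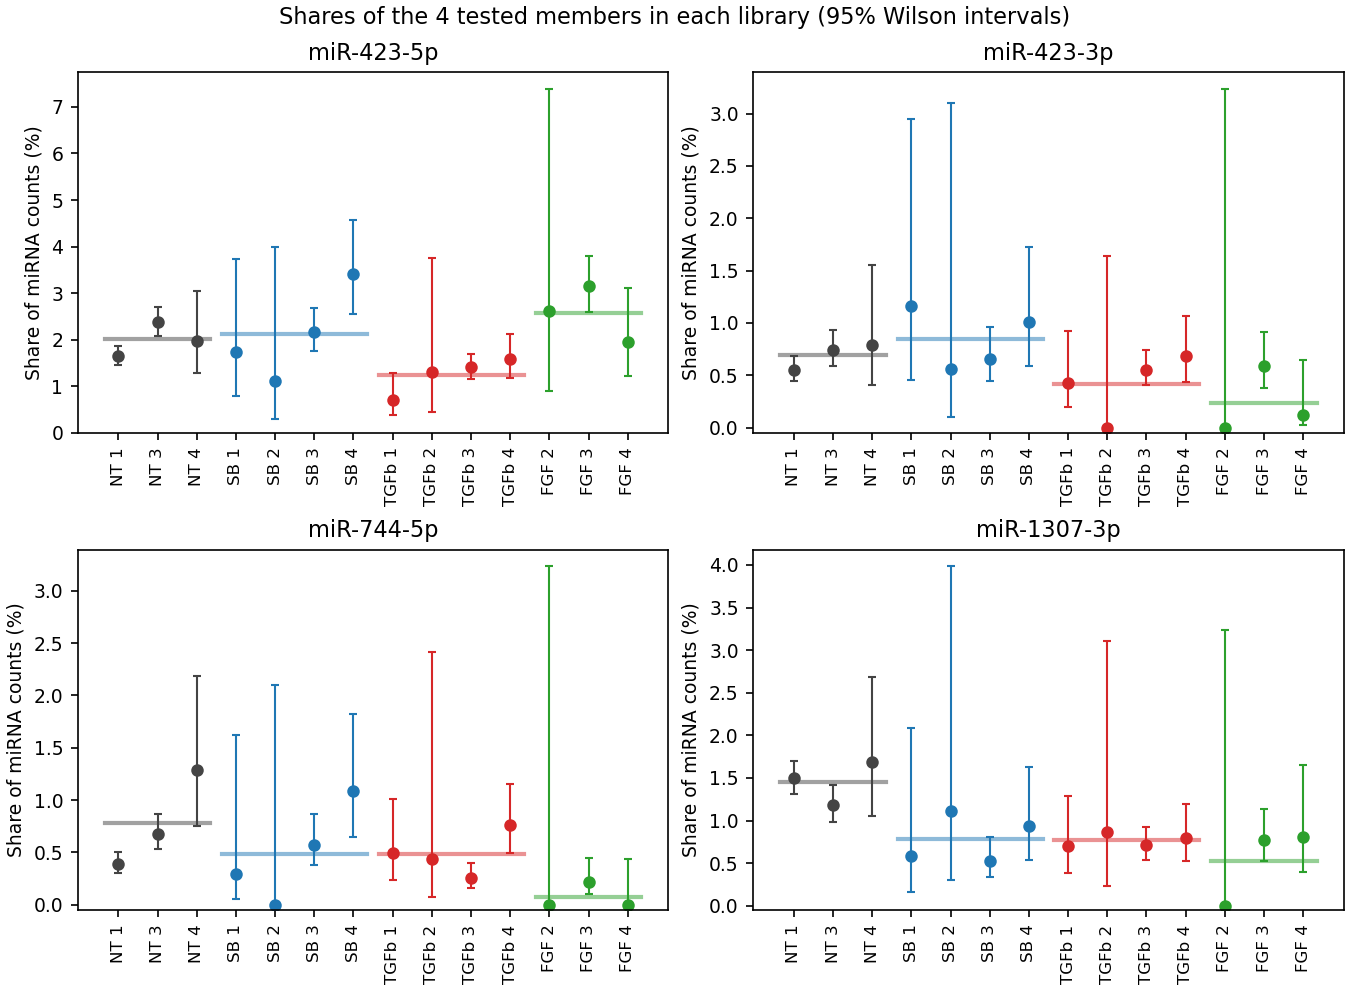
Share of all miRNA counts (%, linear axis) of the 4 tested members in each of the 14 libraries; points are libraries, vertical lines 95% Wilson intervals and horizontal lines group means. The 3 NT libraries of miR-1307-3p sit at 1.18% to 1.68%, above the points of the other 11, and the FGF points of miR-744-5p sit at 0 to 0.216%, below those of NT and TGFb, while the intervals of the shallow libraries are wide.

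Whether any member differed between conditions was tested with edgeR's quasi-likelihood test on the counts, in 1 fit over all 14 libraries, with Benjamini-Hochberg adjustment over the 47 tested miRNAs and a threshold of 0.05. None of the 4 members passed in any comparison. SB against NT called 0 of 4 members (2.13% of the 47 were called), TGFb against NT 0 of 4 (0% called) and FGF against NT 0 of 4 (2.13% called). TGFb against SB, TGFb against FGF, FGF against SB and the test for any difference among the 4 groups each called 0 of 4 members (0% of the 47 called in each). At an unadjusted edgeR p under 0.05 there was 1 member, miR-744-5p, in each of the 3 comparisons with FGF, and 0 in the others. Among all 47 miRNAs, 8 had such a p in FGF against NT, 7 in TGFb against FGF and 3 in FGF against SB. DESeq2 on the counts and limma on the authors' adjusted values also called no member. Comparisons that share a group also share its libraries.

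In FGF against NT, the log2 fold change of miR-744-5p was −2.80 (SE 1.16), with an edgeR adjusted p of 0.261 (unadjusted 0.0226), the lowest fold change of the 47. The filter asked that at least 3 libraries reach the share of 10 counts in the median total of 1352. miR-744-5p did so only in NT 4 (1.29%), SB 4 (1.09%) and TGFb 4 (0.758%), and miR-423-3p only in NT and SB libraries. Neither did so in FGF, so their low FGF places and p-values are not independent of how they entered the list. In the same comparison miR-1307-3p was at −1.48 (SE 0.76, edgeR adjusted p = 0.288), miR-423-3p at −1.36 (SE 0.97, adjusted p = 0.476) and miR-423-5p at −0.07 (SE 0.62, adjusted p = 0.981). The 2 arms of miR-423 thus took different places in it, with miR-423-5p near the median of the 47 (0.00) and miR-423-3p 6th from the lowest. The difference between these 2 fold changes was not tested. The median of the 4 members was −1.42, and all 4 were below the median of the 47. FGF shares of 2 of the 4 members, miR-744-5p and miR-1307-3p, lay below all NT shares, against 8.51% of the 47. Both were lower in FGF in the 2 replicate numbers that the groups share, numbers 3 and 4.

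The other 2 FGF comparisons gave miR-744-5p a place at or near the end of the list again. In FGF against SB it was at −2.35 (SE 1.14, edgeR adjusted p = 0.704, unadjusted 0.0491), the lowest of the 47. In TGFb against FGF it was at 2.34 (SE 1.13, edgeR adjusted p = 0.323, unadjusted 0.0481), 46th from the lowest. These comparisons use the same 3 FGF libraries with 7 counts in all, so they are not separate evidence. miR-423-3p was at −1.47 (SE 0.96, adjusted p = 0.815) in FGF against SB and at 0.99 (SE 0.93, adjusted p = 0.888) in TGFb against FGF. miR-1307-3p was at −0.34 (SE 0.76, adjusted p = 0.964) and 0.64 (SE 0.73, adjusted p = 0.888), and miR-423-5p at −0.02 (SE 0.60, adjusted p = 0.970) and −0.53 (SE 0.59, adjusted p = 0.888). The deepest FGF library, replicate 3, decided several of these values. Without it miR-423-5p was at 0.25 in TGFb against FGF and at −1.03 in FGF against NT, where the median of the miRNAs tested was −0.50. miR-423-3p, left with 1 FGF count, was then at −3.72 in FGF against NT, 3.19 in TGFb against FGF and −3.29 in FGF against SB. None of these values passed. TGFb shares did not overlap FGF shares for 1 member on the lower side, miR-423-5p (10.6% of the 47), and for 1 on the higher side, miR-744-5p (4.26% of the 47).

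miR-1307-3p had a fold change below 0 in all 3 comparisons with NT, 5th from the lowest in each. Its log2 fold change was −1.14 in SB (SE 0.70, edgeR adjusted p = 0.441) and −0.84 in TGFb (SE 0.67, adjusted p = 0.935), beside the −1.48 in FGF. The 3 values share the NT libraries. In SB against NT its shares were the only ones of the 4 members that lay wholly below NT (6.38% of the 47 did so). The median of the 4 members was −0.25 there, beside −0.04 for the 47. miR-423-5p was at −0.04 (SE 0.58), miR-423-3p at 0.11 (SE 0.86) and miR-744-5p at −0.46 (SE 0.92), each smaller than its SE.

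In TGFb against NT all 4 members were below the median of the 47 (0.09), with a median of −0.53, and 2 of them, miR-423-5p and miR-1307-3p, had shares wholly below NT (8.51% of the 47 did so). miR-423-5p was at −0.60 (SE 0.57, edgeR adjusted p = 0.935), miR-423-3p at −0.36 (SE 0.84) and miR-744-5p at −0.46 (SE 0.90). In TGFb against SB, miR-423-5p was at −0.55 (SE 0.55, edgeR adjusted p = 0.879), miR-423-3p at −0.48 (SE 0.82), miR-744-5p at −0.01 (SE 0.79) and miR-1307-3p at 0.30 (SE 0.68), and 0 of 4 members had shares wholly to 1 side (2.13% of the 47 were wholly lower in TGFb and 6.38% wholly higher). With other scaling in place of TMM the whole list shifted, and the sign of miR-423-5p against NT shifted with it. RLE factors put it at 0.13 in SB and 0.051 in FGF, with medians of the 47 at 0.13 and 0.15. Library size alone put it at 0.16 and 0.41, which were also the medians of the 47, so relative to the other miRNAs it was not above the median in any of these.

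**Figure D2:**
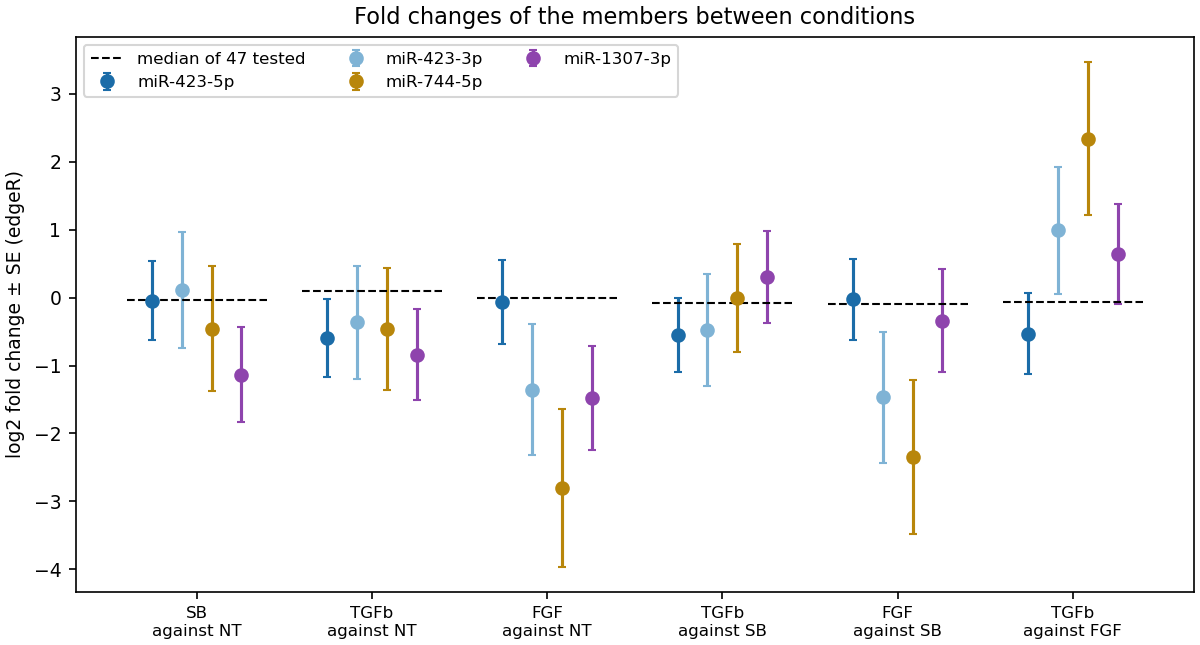
log2 fold change (edgeR, vertical axis) of the 4 tested members in the 6 comparisons between conditions; points are estimates, vertical lines 1 SE on each side and dashed lines the median of the 47 tested miRNAs. No member passed an adjusted p of 0.05, and miR-744-5p lies farthest from the dashed line in the 3 comparisons with FGF, at −2.80, −2.35 and 2.34.

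The arm ratio of a hairpin compares counts within a library, so it does not depend on the library's total. miR-423 was the only one of the 3 hairpins found with appreciable counts of both arms, 910 of 5p and 289 of 3p. Its 5p share of both arms was 75.0%, 76.3% and 71.4% in NT 1, 3 and 4. In SB it was 60.0%, 76.9% and 77.2% in replicates 1, 3 and 4, and in TGFb 62.5%, 71.9% and 69.8% in replicates 1, 3 and 4. FGF 3 and FGF 4 had 84.3% and 94.4%. SB 2 (66.7%), TGFb 2 (100%) and FGF 2 (100%) had only 3 arm counts each and were left out of the tests, which asked for at least 10.

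The 2 FGF libraries were thus above all 9 other libraries with at least 10 arm counts, which ran from 60.0% to 77.2%. FGF averaged 89.4% ± 7.17 (SD, n = 2), NT 74.2% ± 2.51 (n = 3), SB 71.3% ± 9.83 (n = 3) and TGFb 68.1% ± 4.95 (n = 3). FGF exceeded NT by 15.1 percentage points and SB by 18.02, and TGFb minus FGF was −21.28 points. Each of these 3 differences had a two-sided exact permutation p of 0.1, the smallest that 2 against 3 libraries allow, and 0.4 after Benjamini-Hochberg adjustment over the 12 arm comparisons made. The design therefore could not place them beyond the spread between libraries. With TGFb 2 counted, at 3 counts, TGFb also reached 100% and overlapped FGF.

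Counts added up over the libraries with at least 10 arm counts gave a 5p share of 85.6% (78.8% to 90.5%) in FGF, 75.4% (72.0% to 78.6%) in NT, 76.0% (69.2% to 81.7%) in SB and 70.7% (64.4% to 76.2%) in TGFb. These intervals cover counting error only and leave out the spread between libraries, so they do not set the groups apart. The FGF sum held 139 counts, of which 121 came from FGF 3, so it is close to the value of that library, whose own interval was 76.8% to 89.7%. In FGF 4 the share rested on 17 counts of 5p and 1 of 3p (74.2% to 99.0%). The 3 comparisons without FGF gave differences of −2.88 (SB minus NT), −6.15 (TGFb minus NT) and −3.26 points (TGFb minus SB), with exact permutation p of 0.2 to 1 and adjusted p of 0.6 to 1.

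**Figure D3:**
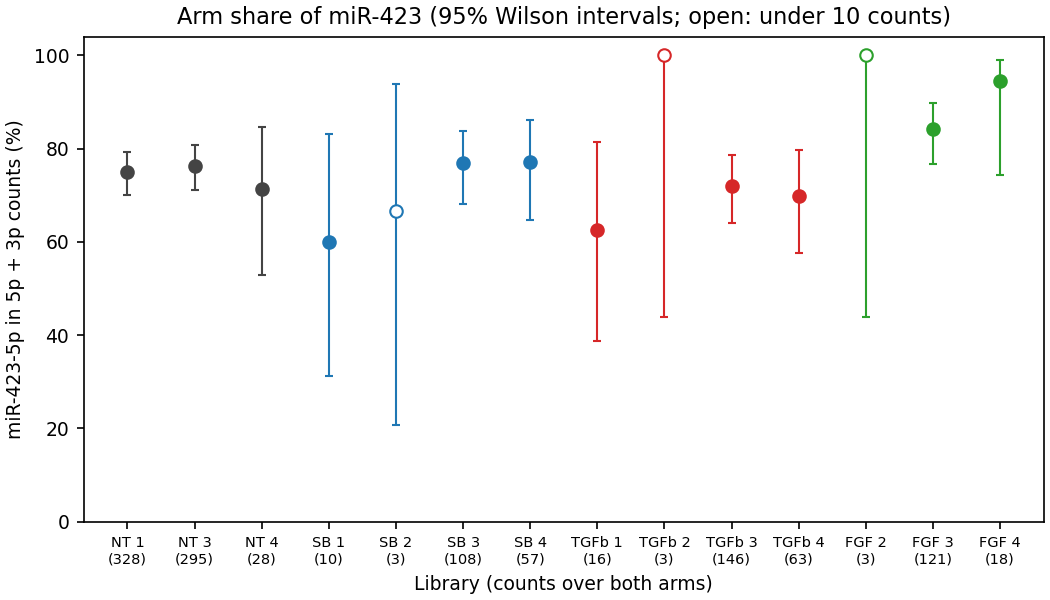
Share of miR-423-5p in the counts of both miR-423 arms (%, vertical axis from 0) in each library, with 95% Wilson intervals and the number of arm counts under each name; open points have under 10 arm counts. FGF 3 (84.3%) and FGF 4 (94.4%) lie above the 9 other filled points, which run from 60.0% to 77.2%.

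The other 2 hairpins were found almost wholly as 1 arm, and as opposite ones. All 227 counts of miR-744 were of 5p (98.3% to 100%), and among 510 counts of miR-1307, 506 were of 3p, or 99.2% (98.0% to 99.7%). For miR-744 every library with a count had 100% 5p. For miR-1307 the 5p share was 0 in 9 of the 13 libraries with a count, 0.885% in NT 3, 1.85% in TGFb 3, 4.76% in SB 3 and 12.5% in FGF 4, the last from 1 count of 8. The 6 comparisons made for these hairpins had exact permutation p of 0.4 to 1 and could not have passed, since the smallest p they allow is 0.1 to 0.333. For miR-744 they compared 100% with 100%. FGF had too few libraries with 10 arm counts for either hairpin.

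How steady the members were over the 14 libraries was described by the coefficient of variation (CV) of TMM CPM. miR-423-5p had a CV of 39.0%, the 2nd lowest of the 47 after miR-320a-3p (37.7%), where the median was 78.4% and the highest 215%. miR-1307-3p had 51.7% (6th), miR-423-3p 58.1% (12th) and miR-744-5p 82.0% (27th). The members therefore ranged from among the steadiest miRNAs to above the median, and their order followed their mean level, with rarer members varying more. In the 10 libraries with at least 500 counts, miR-423-5p had the lowest CV of the 47 (33.5%), and the others had 37.3% (miR-423-3p, 5th), 40.2% (miR-1307-3p, 8th) and 61.9% (miR-744-5p, 25th). With library size alone in place of TMM, miR-423-5p was 4th, at 40.7%. edgeR's biological coefficient of variation, which sets counting error and group means aside, ranked miR-423-5p 3rd (0.56), miR-1307-3p 6th (0.58), miR-423-3p 15th (0.66) and miR-744-5p 24th (0.71).

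**Figure D4:**
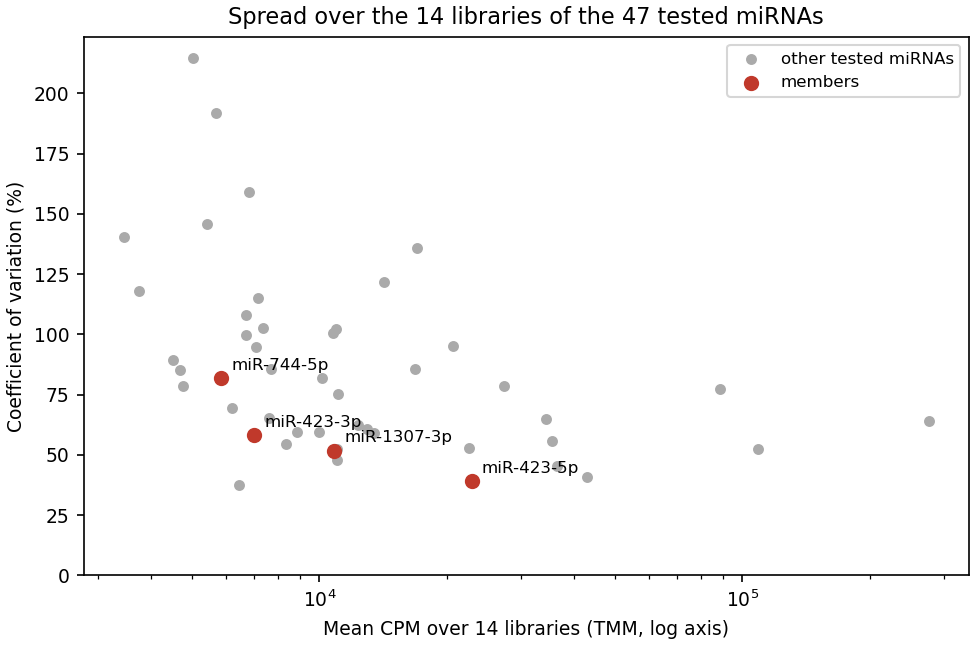
Coefficient of variation (%) over the 14 libraries against mean CPM (TMM, log axis) for the 47 tested miRNAs, members in red. miR-423-5p has the 2nd lowest value (39.0%), and miR-744-5p, the rarest of the 4, is above the median of 78.4%.

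Shares of the members had small positive rank correlations with the depth of the library, which were not tested. The part of depth in the differences was not tested either. The Spearman rho between a member's share and the library total, over the 14 libraries, was 0.11 for miR-423-5p, 0.24 for miR-423-3p, 0.36 for miR-744-5p and 0.19 for miR-1307-3p. The libraries of replicate number 2, with 115 to 231 counts, held miR-423-5p at 1.12% to 2.61%, within the range of the other numbers (0.705% to 3.42%). They held miR-744-5p at 0 to 0.433%, miR-423-3p at 0 to 0.559% and miR-1307-3p at 0 to 1.12%.

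The 2 arms of miR-423 come from 1 hairpin, and their log2 CPM over the 14 libraries had a Pearson r of 0.42. All libraries share the 47 miRNAs that set the scale, so these correlations are descriptions. miR-423-3p was 7th of the 46 other tested miRNAs in likeness to miR-423-5p, miR-744-5p 10th (r = 0.38) and miR-1307-3p 24th (r = 0.13), beside a median of 0.14. The 3 most like it were miR-25-3p (r = 0.76), miR-1290 (r = 0.70) and miR-103a-3p (r = 0.59). Among themselves the 3 rarer members had higher values: miR-423-3p had r = 0.63 with miR-1307-3p and 0.60 with miR-744-5p, and miR-744-5p had 0.56 with miR-1307-3p. All 3 were at 0 in FGF 2, the shallowest library (115 counts), where miR-423-5p had 3 counts. The part of such zeros in these r values was not tested.

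A further 32 miRNAs were listed as lying in broadly expressed host genes, a breadth that was not measured here. Of these, 29 were detected, with 1323 counts or 2.81% of the total. The 6 members, chosen with their counts in view, had 4.11%. Of the 26 with coordinates in RefSeq, 24 lay inside a protein-coding gene on the same strand. Those without coordinates, among them miR-151a-3p, were not checked. The 3 of the list with the highest mean share were miR-151a-3p (0.490% ± 0.415, SD, n = 14), miR-26b-5p (0.450% ± 0.245) and miR-191-5p (0.365% ± 0.315). The first was near miR-744-5p, the rarest tested member, and below the other 3. Only miR-191-5p, which lies in DALRD3, had enough counts to be tested. It passed in none of the 6 comparisons, and its log2 fold change against NT was −1.06 in SB (SE 1.14), −1.20 in TGFb (SE 1.08) and −0.93 in FGF (SE 1.22; edgeR adjusted p of 0.651, 0.935 and 0.755).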

How the data were processed

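Small RNA of EVs was sequenced in 14 libraries. EV isolation was by polyethylene glycol precipitation and libraries were of the QIAseq miRNA type, per the labels' protocols. The submitters' processing notes name GRCh38. The aligner, the miRNA annotation and the use of molecular identifiers are not given in the sources used here, so whether reads or identifiers were counted is unknown.

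In the first table the authors deposited whole-number counts per miRNA. The second deposited table holds score values, whole numbers that the authors adjusted from the counts in a way no label or header describes. It was used only as an alternative. The adjustment altered miR-423-5p in 14 of 14 libraries, by log2 −0.50 to 0.87. Its other 18 columns (14 of CPM per library and 4 of group means) were not used.

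edgeR 4.0.16 (R 4.3.3) was fitted to the counts of all 14 libraries, with group means only, TMM normalization on the tested miRNAs and robust estimation. filterByExpr with a minimum count of 10 kept 47 miRNAs. SE is the absolute log2 fold change over the square root of F. Alternatives used DESeq2 1.42.0, limma 3.58.1 on log2 CPM of the score values (prior count 2), other scaling, filters and denominators, a replicate block, and leaving out libraries. Arm shares were compared by two-sided exact permutation tests (Python 3.11.15), and the edgeR and permutation scripts were tested on simulated data. For edgeR these had far greater depth and less spread than the real libraries, so that test does not show what the fit could find here. Host genes are from GENCODE 29.

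The 18 pairs of replicates differed beyond counting noise (resampled chi-square test, 2000 resamples, largest p = 0.0009995 over the pairs), so none was merged. Over 18 pairs of the same replicate number, deviations from group means correlated at 0.31 on average (0.0057 to 0.63) and 15 exceeded 0.1. Same-numbered libraries thus tended to deviate together, but the bar set was above 0.1 in every pair, so the numbers were not taken as pairs and the block was an alternative. Totals ran from 115 to 231 counts for number 2, 868 to 2770 for number 4, 3241 to 9462 for number 3 and 345 to 14862 for number 1. NT lacks number 2 and FGF lacks number 1, and the main p-values make no allowance for this. Depth was 115 to 14862 counts; intervals are 95% Wilson intervals, and for a count of 0 the limit is 3 counts over the total.

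The members, the lists and the tests were chosen with earlier results of these data known. Named are the 6 members, miRNAs on the strand opposite MIR423, the 3 tested miRNAs most correlated with the most abundant member, and the 3 host-list miRNAs of highest mean share. miR-10396a-5p, miR-320a-3p and the serum and red-cell miRNAs were named after their values were seen.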

Additional observations from a re-analysis of the deposited data

How the results depend on the processing

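No member passed an edgeR, DESeq2 or limma adjusted p of 0.05 in any of 513 values of the 24 member fold changes under the alternatives; the smallest was 0.0872 (miR-744-5p, FGF against NT, adjusted table, log2 −2.83). Of the 24 fold changes, 16 kept their direction throughout. Depth limits miR-744-5p: it had 7 FGF counts, all in replicate 3, without which its fitted −7.51 depends on the prior count, and the filter dropped it in 5 of 14 fits without 1 library. The median of the 47 miRNAs in SB and FGF against NT, −0.04 and 0.00 with TMM, was 0.13 and 0.15 with RLE factors, 0.16 and 0.41 with library size alone and 0.18 and 0.19 with DESeq2. A filter of 10 counts in every library left 0 miRNAs and was not run. Where no reason is given for a change, the cause was not tested.

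Calls over all tested miRNAs, beside 1 in SB and 1 in FGF against NT and 0 elsewhere, were as follows. With the replicate block there were 4 for any group, 3 in TGFb against SB, 2 in TGFb against FGF, 2 in FGF against NT and 1 in FGF against SB, none of them a member. It gave miR-744-5p log2 −2.65 (adjusted p = 0.116) in FGF against NT. DESeq2 called 2 for any group, 3 in SB against NT, and 1 each in TGFb against FGF and FGF against SB. The adjusted table gave 5 for any group, 2 in TGFb against SB, 1 in TGFb against FGF, 1 in FGF against SB, 0 in SB and 2 in FGF against NT. RLE factors, library size alone, only the 2 groups compared and only libraries of at least 500 counts each gave 0 in SB and 0 in FGF against NT. Only the 2 groups also gave 3 in TGFb against FGF and 2 in FGF against SB. No filter gave 1 for any group and 0 in SB against NT. Totals over all miRNAs, an alternative added after seeing the data, gave 1 for any group and 2 in SB against NT. Leaving out 1 library gave 0 to 9 in SB against NT, 0 to 8 in FGF against NT, 0 to 1 in TGFb against NT and in TGFb against FGF, and 0 to 4 for any group, the highest each time without NT 4 (without NT 4 or TGFb 2 in TGFb against FGF).

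The sign turned in 8 fold changes, partly with the shift of the whole list: for miR-423-5p the RLE, library size and DESeq2 values in SB against NT, and the library size and adjusted table values in FGF against NT, equal the median of the 47. miR-423-5p in SB against NT became 0.13 (RLE), 0.16 (library size), 0.18 (DESeq2), 0.11 (adjusted table) and 0.067 (only the 2 groups). In FGF against NT it became 0.051, 0.41, 0.071 and 0.17 (RLE, library size, DESeq2, adjusted table). In FGF against SB it became 0.24 (library size), 0.052 (no filter), 0.098 (all totals), 0.055 (adjusted table) and 0.093 (only the 2 groups). miR-423-3p in SB against NT became −0.41 (no filter), −0.36 (all totals) and −0.36 (at least 500 counts). In TGFb against SB, miR-744-5p became 0.17 (no filter), 0.086 (replicate block), 0.20 (all totals) and 0.75 (adjusted table), and miR-1307-3p −0.046 (library size) and −0.057 (adjusted table). In FGF against SB, miR-1307-3p became 0.012 (at least 500 counts). Leaving out 1 library, miR-423-5p ran from −0.57 to 0.040 in SB against NT, −0.46 to 0.35 in FGF against SB and −0.72 to 0.25 (above 0 only without FGF 3) in TGFb against FGF, miR-423-3p from −0.42 to 0.26 in SB against NT and miR-744-5p from −0.049 to 0.30 in TGFb against SB.

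Arm differences of miR-423 turned to 1.83 points in TGFb against NT and 5.89 in TGFb against SB with at least 1 arm count, and in SB against NT to 2.79 with at least 20 and 0.578 with counts added up. Leaving out 1 library, SB against NT ran from −5.81 to 2.79 and that of miR-1307 in TGFb against NT from −0.295 to 0.631. Without 1 NT library FGF was above NT by 13.7 to 16.2 points; without FGF 3 or FGF 4 a single FGF library is left and no difference was computed. Without miR-483 in the total, shares of miR-423-5p were 3.13% in NT, 1.98% in TGFb and 3.18% in FGF, of miR-423-3p 1.07% in NT and 1.21% in SB, of miR-744-5p 0.761% in TGFb, and of miR-1307-3p 2.22% in NT, 1.09% in SB and 1.24% in TGFb, larger because the total is smaller. The adjusted table gave miR-1307-3p 0.931% in TGFb. The CV of miR-423-3p was 37.3% in libraries of at least 500 counts. The log2 ratio of the lowest NT to the highest other library for miR-1307-3p was −0.31 in the adjusted table, set by an SB library (−0.31 against SB alone). For miR-423-5p, the lowest NT over the highest TGFb library gave −0.092 without miR-483 and −0.094 in TMM CPM, and the lowest FGF over the highest TGFb library −0.26 and −0.24; these ratios were added after seeing the data.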
